A study of Mus musculus with 3 samples.

Results

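Cyclic nucleotide phosphodiesterases are the enzymes that break down the second messengers cAMP and cGMP, and 10 of their genes were followed here out of 32285 genes counted in single cells of the mouse heart. The genes were named by symbol and by no rule on measured values, but earlier results of these data were known at the time. They were Pde1a, Pde1c, Pde2a, Pde3a, Pde3b, Pde4b, Pde4d, Pde5a, Pde7b and Pde8b. All 10 were detected. The hearts came from male C57/B6J mice of 3 genotypes, with 1 library each: WT, Myh6-R404Q (a point mutation in the gene of alpha myosin heavy chain, a motor protein of heart muscle) and Prkag2-p.R299Q (a point mutation in the gene of a regulatory subunit of AMPK, an energy-sensing kinase). Ages and the number of hearts per library were not given in the labels, nor was any treatment. Hearts were digested with collagenase, passed through a strainer and described as total cells, and RNA was counted with a droplet assay that reads the 3' end of each transcript as unique molecular identifiers (UMIs).

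In heart muscle, adrenergic receptors raise cAMP through adenylyl cyclases, and cAMP acts through protein kinase A to strengthen and speed the beat. Nitric oxide and natriuretic peptides raise cGMP, which acts through protein kinase G and relaxes vessel walls. Phosphodiesterases end both signals, and the families differ in substrate and control: PDE1 is activated by calcium and calmodulin, PDE2 is stimulated by cGMP, PDE3 cleaves cAMP and is inhibited by cGMP, PDE4, PDE7 and PDE8 cleave cAMP, and PDE5 cleaves cGMP.

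The 3 libraries held 18033, 12662 and 7951 barcodes for WT, Myh6-R404Q and Prkag2-p.R299Q, of which 14831, 10555 and 6840 were kept as single cells, with a median of 1413, 1851 and 2344 UMIs per cell. The matrix deposited for Myh6-R404Q held all 3 libraries. Its barcodes with the suffixes 1 and 2 repeated the Prkag2-p.R299Q and WT matrices with 0 differing entries, so the suffix 3 was used, and its genotype rests on that elimination. Between 28 and 51 barcode sequences were shared by any pair of libraries. Myh6 stood at 6437, 6108 and 7178 CPM of the library in WT, the Myh6 mutant and the Prkag2 mutant, and Prkag2 at 137, 120 and 126 CPM, but a point mutation leaves its 3' counts in place, so these levels do not check the genotypes. With 1 library per genotype there is no test of genotype. Intervals are 95% and cover counting error only, and genotype cannot be told apart from animal, preparation or depth.

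Cells fell into 21 clusters, of which 20 were named from marker genes into 13 classes (each called "-like"). Neither the phosphodiesterases nor the other genes of cyclic nucleotide signalling took part in the clustering. In the 8 classes with at least 200 cells in every library, every listed marker of the class reached 10 CPM in WT, where CPM is a gene's UMI count scaled to the same total in every class and library. RNA of heart muscle was present in every class: all 10 cardiomyocyte markers exceeded 10 CPM in each of the other 7 compared classes, with none at 0. Their summed level there ran from 8303 to 22194 CPM in WT, 6100 to 25497 CPM in Myh6-R404Q and 5036 to 23457 CPM in Prkag2-p.R299Q, against 62228, 53573 and 58143 CPM in cardiomyocyte-like cells. Levels in CPM are compared for 1 gene across classes and libraries, not between genes, since the counts are not on a per-length scale.

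RefSeq promoters (GRCm38.p6) were matched for 8 of the 10 genes, as 24 promoters that reach from 250 bases before to 50 bases after a start. The 250 bases before the start are shown for 3 of them: Pde4b and Pde4d, whose levels were highest in the same class, and Pde8b, with the highest ratio between its first and second class. In mm10 with GENCODE vM21, Pde4b lies at chr4:102087543-102607259 on the plus strand, Pde4d at chr13:108449948-109953461 on the plus strand and Pde8b at chr13:95024454-95250336 on the minus strand, all protein-coding. Capitals mark the CRE core TGACG (or CGTCA on the other strand) in Pde4b, 34 bases before the start, and the GATA motif AGATAA in Pde4d, 67 bases before the start. The Pde8b stretch held neither. Pde4b has 4 promoters in the table, and the one shown was picked after the search as the only one with a match in its upstream stretch. Pde4d has 1, and Pde8b has 5, none with a match upstream.
Pde4b, chr4:102421305-102421554, plus strand: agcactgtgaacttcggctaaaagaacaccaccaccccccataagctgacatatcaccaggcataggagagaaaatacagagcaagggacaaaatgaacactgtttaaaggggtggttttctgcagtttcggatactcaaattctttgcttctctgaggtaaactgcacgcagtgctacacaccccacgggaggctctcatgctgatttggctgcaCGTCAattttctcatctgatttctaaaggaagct
Pde4d, chr13:108653927-108654176, plus strand: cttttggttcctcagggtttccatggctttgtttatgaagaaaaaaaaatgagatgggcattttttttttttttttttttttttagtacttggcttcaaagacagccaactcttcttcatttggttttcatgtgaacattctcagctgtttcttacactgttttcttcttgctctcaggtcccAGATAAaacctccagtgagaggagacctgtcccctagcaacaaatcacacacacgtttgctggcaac
Pde8b, chr13:95223051-95223300, minus strand: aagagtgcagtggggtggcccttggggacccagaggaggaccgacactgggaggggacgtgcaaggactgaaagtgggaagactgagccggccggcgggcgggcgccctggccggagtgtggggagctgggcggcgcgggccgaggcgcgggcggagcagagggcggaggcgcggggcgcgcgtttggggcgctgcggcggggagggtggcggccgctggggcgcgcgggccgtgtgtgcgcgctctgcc
In all, 9 motifs were searched on both strands: the CRE, its core and the E-box first, and the others after the full CRE gave no match. The full CRE TGACGTCA was in 0 of the 24 promoters, against 1.80% of 32619 promoters of the genome, and the E-box CACGTG was in 0, against 7.20%. The core TGACG, which the full CRE and the longer core also hold, was in 4 of the 24, against 20.9%. The longer core TGACGC was in 2 (7.44% of all), AGATAA in 2 (11.2%), the TEAD motif GGAATG in 2 (14.6%) and the RBPJ motif TGGGAA in 10 (25.4%). CArG and MEF2 motifs were in 0 (1.64% and 3.11%). A match is a description of these letters, and counts from the 3' end do not show which start a transcript used.

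The members differed in where they were highest. Among the 8 compared classes, 9 of the 10 genes had their highest level in the same class in all 3 libraries: Pde4d, Pde4b and Pde1c in cardiomyocyte-like cells, Pde3a in endocardial-like cells, Pde1a in fibroblast-like cells, Pde2a in endothelial-like cells, Pde3b in macrophage-like cells, and Pde5a and Pde8b in pericyte-like cells. Pde7b was the exception, with lymphatic endothelial-like cells highest in WT, mesothelial-like cells in Myh6-R404Q and endocardial-like cells in the Prkag2 mutant. The plot of levels by class shows each gene on its own log axis.

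**Figure D1:**
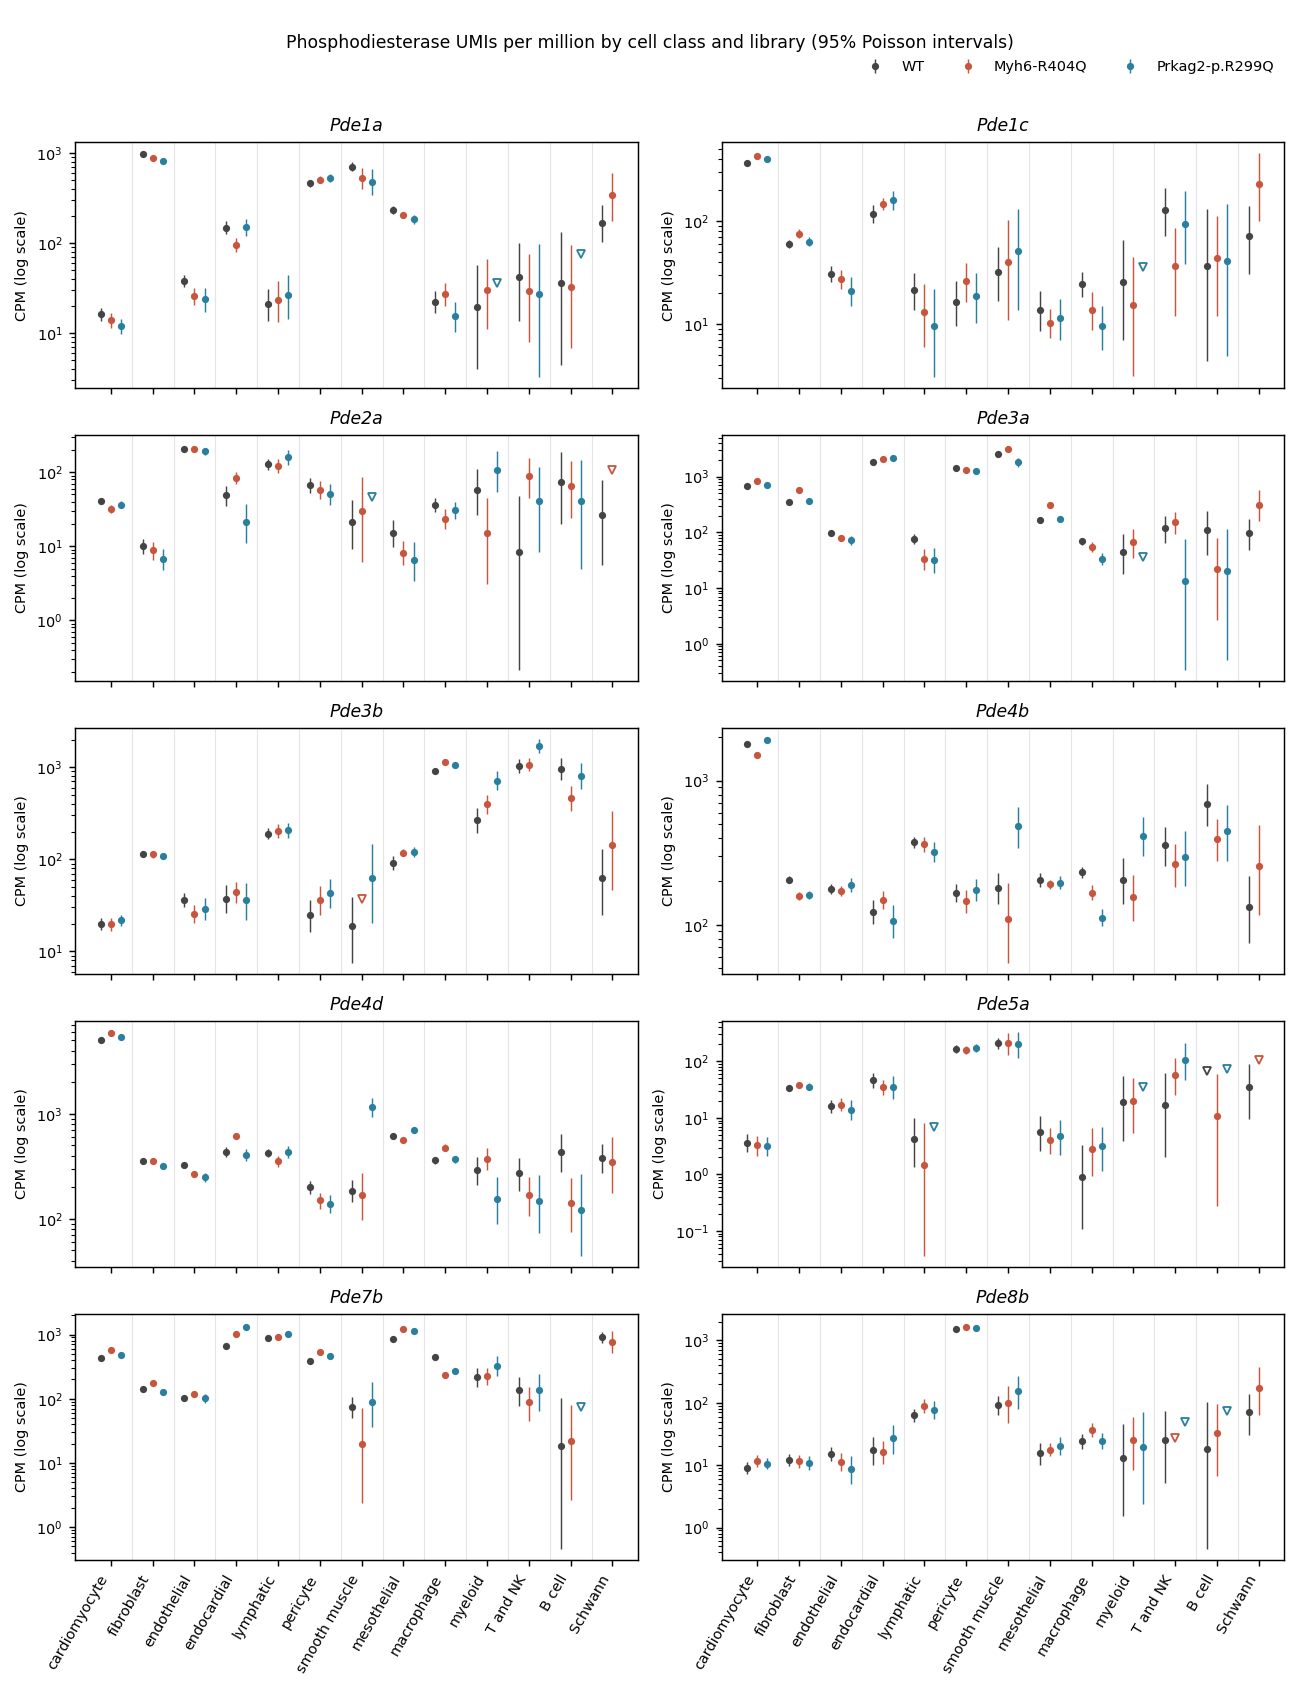
Level of each phosphodiesterase in CPM (log axis) in 13 cell classes and 3 libraries, with 95% Poisson intervals; open triangles mark the upper bound where no UMI was counted, and Schwann-like cells of Prkag2-p.R299Q are not drawn because fewer than 15 were kept. Pde8b stands at 1531, 1665 and 1561 CPM in pericyte-like cells and at most at 88.1 CPM in the other 7 compared classes.

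Pde4d, a cAMP-specific enzyme known for its place in calcium release and relaxation complexes of heart muscle, stood at 5013, 5930 and 5350 CPM in cardiomyocyte-like cells (values in this order are for WT, then Myh6-R404Q, then Prkag2-p.R299Q). That was 8.15, 9.62 and 7.66 times its next class. Its UMIs were found in 93.4%, 91.6% and 88.9% of cardiomyocyte-like cells thinned to 1000 UMIs each, and in 28.7%, 32.1% and 26.2% of macrophage-like cells. Pde4b, a second cAMP-specific enzyme, stood at 1809, 1512 and 1909 CPM, or 4.85, 4.17 and 5.94 times its level in lymphatic endothelial-like cells, its next class. Pde1c, which cleaves both messengers, stood at 363, 423 and 394 CPM, with endocardial-like cells next at 117, 146 and 158 CPM. Cardiomyocyte-like cells also held Pde3a at 670, 847 and 703 CPM and Pde7b at 425, 566 and 472 CPM.

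Outside muscle these genes sit on a background of muscle RNA. The level expected from free cardiomyocyte RNA was the gene's level in cardiomyocyte-like cells scaled by the summed CPM of Myh6, Myl2, Tnni3, Actc1 and Tnnt2. Pde4d and Pde4b were at or under it in 21 of 21 values from the other 7 classes and 3 libraries, Pde1c in 17, Pde3a in 9 and Pde7b in 3. Levels at or under it are not read as expression by the class. The expectation takes all of those markers as free RNA that carries the gene in proportion. A level under it therefore does not show that the class lacks the gene. A tighter ceiling, taken in each library from the class with the lowest ratio of the gene to those markers and chosen after the data were seen, left 3 of 21 values at or under it for each gene, a number its construction fixes. Pde4d in macrophage-like cells, at 360, 478 and 369 CPM, lay above that ceiling of 164, 76.9 and 86.0 CPM. Every class but the one that sets the ceiling must lie above it, so this does not show expression by the class.

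Pde3a, a target of the inotrope milrinone, was highest among the compared classes in endocardial-like cells, which line the chambers, at 1813, 2112 and 2173 CPM. Pericyte-like cells followed at 1401, 1317 and 1241 CPM and cardiomyocyte-like cells came after them, and these neighbours stood apart beyond their intervals in every library. Smooth muscle-like cells, with 193, 48 and 17 cells and so outside the genotype comparison, held 2591, 3144 and 1799 CPM. At the other end, lymphatic endothelial-like and macrophage-like cells lay between 32.2 and 77.0 CPM and did not stand apart from each other in any library.

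In pericyte-like cells, the mural cells of capillaries, Pde8b and Pde5a were higher than in the other 7 compared classes. Pde8b, a cAMP-specific enzyme of high affinity, reached 1531, 1665 and 1561 CPM there, which was 24.5, 18.9 and 20.1 times the next class, lymphatic endothelial-like cells. UMIs of Pde8b were in 68.8%, 69.3% and 66.9% of pericyte-like cells thinned to 1000 UMIs and in 0.538%, 1.26% and 0.686% of cardiomyocyte-like cells. Smooth muscle-like cells had 90.8, 99.5 and 152 CPM of Pde8b. Pde5a, the cGMP-specific enzyme inhibited by sildenafil, was at 165, 160 and 173 CPM in pericyte-like cells and 208, 209 and 203 CPM in smooth muscle-like cells. In cardiomyocyte-like cells Pde5a had 3.63, 3.28 and 3.13 CPM, from 33, 25 and 28 UMIs.

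Pde1a, the other calcium-activated enzyme, was highest in fibroblast-like cells at 970, 879 and 821 CPM, then in pericyte-like cells at 462, 506 and 528 CPM. In cardiomyocyte-like cells Pde1a was at 16.3, 13.9 and 11.9 CPM. Pde2a, whose activity cGMP stimulates, was at 203, 207 and 192 CPM in endothelial-like cells and 127, 121 and 159 CPM in lymphatic endothelial-like cells. The intervals of these classes for Pde2a overlapped in Prkag2-p.R299Q and not in the other libraries. Pde3b, which insulin activates in fat and liver, was at 903, 1147 and 1051 CPM in macrophage-like cells, 4.74, 5.63 and 5.05 times the next class. Pde3b was also high in the small lymphocyte classes, with 1033, 1066 and 1693 CPM in T and NK cell-like cells and 962, 460 and 810 CPM in B cell-like cells, from 40 to 146 UMIs.

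Pde7b had the flattest profile. Lymphatic endothelial-like cells held 892, 928 and 1029 CPM, mesothelial-like cells, which cover the heart's surface, 842, 1202 and 1140 CPM, and endocardial-like cells 660, 1025 and 1305 CPM. In WT the intervals of the lymphatic and mesothelial classes overlapped, so its highest class there was not separated from the next. Endothelial-like cells were lowest at 103, 119 and 101 CPM. Schwann-like cells held 914 CPM in WT and 774 CPM in Myh6-R404Q, from 86 and 16 cells.

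**Figure D2:**
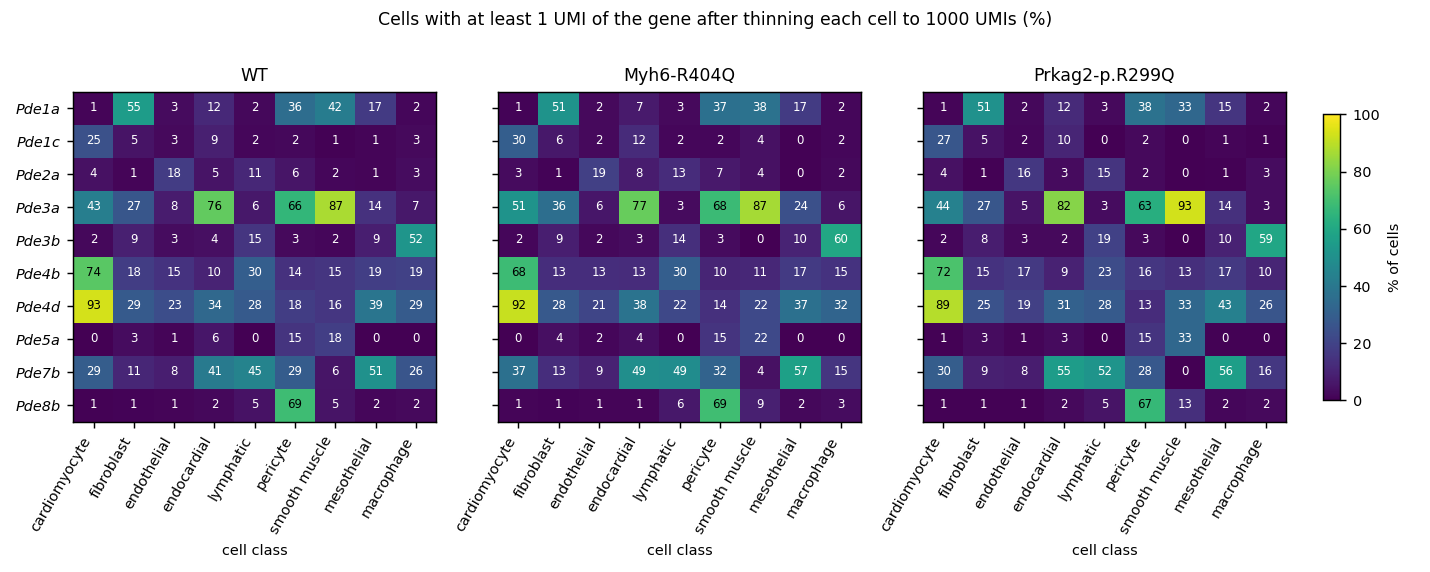
Share of cells (%) with at least 1 UMI of each gene in 9 classes, per library, after every cell was thinned to 1000 UMIs and shallower cells were left out. Pde4d was in 93.4% of cardiomyocyte-like cells and Pde8b in 68.8% of pericyte-like cells of WT, and the pattern of bright cells recurs in the 3 libraries.

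By profile over 24 class and library values, which share libraries and class makeup, the genes most like Pde4b were Fgf13 (Pearson r of log2 CPM 0.962), Rnf207 (0.942) and Pla2g4e (0.939), and those most like Pde4d were Ppip5k2 (0.932), Shld1 (0.931) and Adck1 (0.931). Pde1c went with Pcdh7, Phkg1 and Abtb2 (0.941, 0.941 and 0.920), and Pde3a with Astn2, Gata4 and Sobp (0.929, 0.876 and 0.857). Pde8b went with Lims1 and Bmp5 (0.956 and 0.942), and Pde5a with Lix1l, Nedd4l and Gpc6 (0.924, 0.895 and 0.881). Pde1a went with Gli3, Sdc2 and Snhg18 (0.984, 0.956 and 0.952), Pde2a with Ushbp1, Etl4 and Dipk2b (0.928, 0.894 and 0.893), and Pde3b with Sirpa, Slc9a9 and Nsmce2 (0.965, 0.958 and 0.950). Pde7b had the weakest leading match, Pacsin2 at 0.826, before Thsd4 (0.797) and Rab3gap1 (0.793). Among the members, Pde4b and Pde4d were the most alike at 0.866.

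The mutant hearts were then set against WT, class by class. A gene was called where its level differed at least 1.5-fold, the interval of the ratio left out 1 and either library reached 10 CPM. In Myh6-R404Q, 10 of 76 pairs of member and class were called, 4 higher and 6 lower, beside 10.6% of all gene and class pairs measured (5.83% higher, 4.74% lower). In Prkag2-p.R299Q, 10 of 76 were called, 1 higher and 9 lower, beside 9.3% of all pairs (4.05% higher, 5.24% lower). Both shares are 13.2%. By direction, members were lower in 7.89% and higher in 5.26% of pairs for Myh6-R404Q, and lower in 11.8% and higher in 1.32% for the Prkag2 mutant, so in the latter the lower calls were above their background share and the higher calls below it. Of those lower calls, Pde1c, Pde3a and Pde4b in macrophage-like cells lay under their levels expected from free cardiomyocyte RNA. So did Pde3a in lymphatic endothelial-like cells. The call of Pde1a in endothelial-like cells lay under its level expected from free fibroblast RNA. Pairs of 1 gene or 1 class are not independent, and no test was made of these shares. Both comparisons use the same WT library, so they are not independent of each other. The share of all genes called in each class was, for Myh6-R404Q and then the Prkag2 mutant, 9.32% and 9.3% in fibroblast-like, 9.43% and 8.76% in endothelial-like, 10.2% and 9.09% in endocardial-like, 9.17% and 8.53% in lymphatic endothelial-like, 8.06% and 8.14% in pericyte-like, 11.4% and 10% in mesothelial-like and 14.5% and 13.1% in macrophage-like cells.

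**Figure D3:**
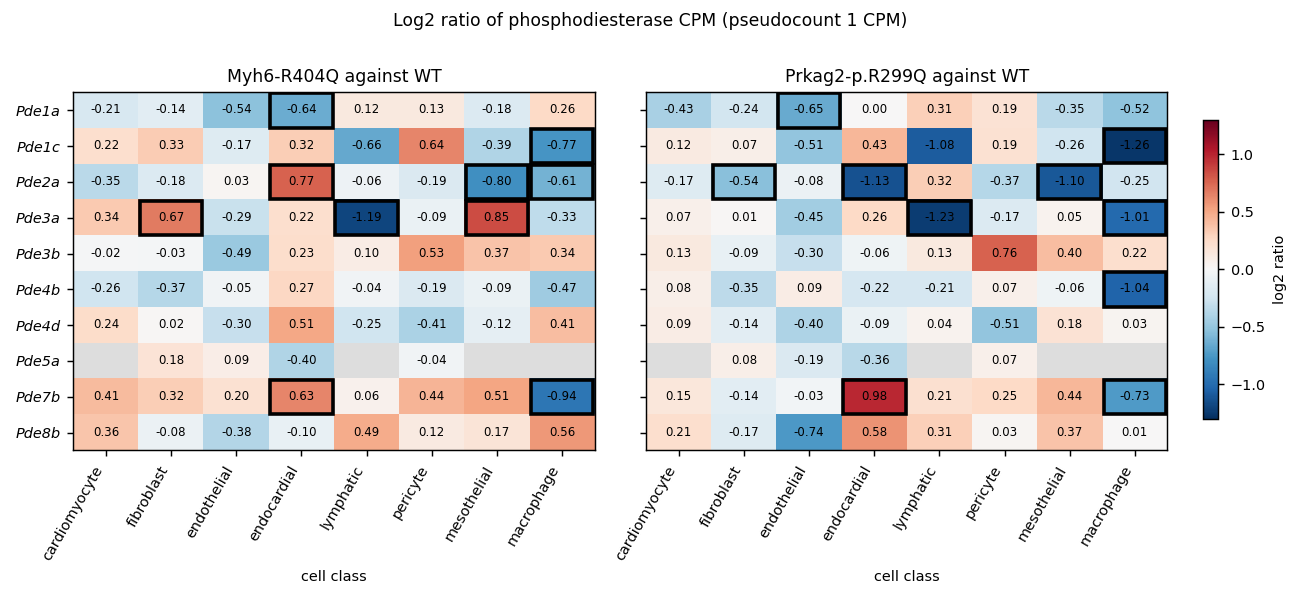
Log2 ratio of each phosphodiesterase's CPM to WT (pseudocount 1 CPM) in 8 classes, for Myh6-R404Q and Prkag2-p.R299Q; boxes mark called pairs and grey cells those under 10 CPM in both libraries. No box falls in the cardiomyocyte or pericyte columns, and the macrophage column holds 3 and 4 boxes, all lower.

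No member was called in cardiomyocyte-like cells, of 9 measured in each comparison. Of all genes measured there, 12.7% were called for the Myh6 mutant and 7.1% for the Prkag2 mutant. A list of 9 is too short to set the lack of calls apart from those shares. The ratio of Pde4d to WT was 1.18 (1.17 to 1.20) for Myh6-R404Q, with 1.07 (1.05 to 1.08) for the Prkag2 mutant. Pde4b was at 0.84 (0.82 to 0.86) and 1.06 (1.03 to 1.08), and Pde3a at 1.26 (1.22 to 1.31) and 1.05 (1.01 to 1.09). The largest ratio was that of Pde7b in Myh6-R404Q, 1.33 (1.27 to 1.39). No member was called in pericyte-like cells either, where Pde8b had ratios of 1.09 (1.01 to 1.17) and 1.02 (0.94 to 1.10) and Pde5a of 0.97 (0.77 to 1.22) and 1.05 (0.83 to 1.33).

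The cardiomyocyte-like class joined a deep cluster led by Mhrt, with a median of 5601 UMIs, and a shallow cluster led by Nppa and Acta1, with a median of 970 UMIs. In the shallow cluster Pde4b was at 1205, 599 and 628 CPM in the 3 libraries, ratios of 0.50 (0.43 to 0.58) and 0.52 (0.45 to 0.61). Pde4d there was at 3354, 2631 and 1354 CPM, ratios of 0.78 (0.73 to 0.85) and 0.40 (0.36 to 0.45). In the deep cluster Pde4d was at 5115, 6105 and 5518 CPM, ratios of 1.19 and 1.08, and Pde4b at 1846, 1561 and 1963 CPM, ratios of 0.85 and 1.06. So Pde4d was lower than WT in the shallow cluster and higher in the deep one in both mutants, and Pde4b showed this for the Prkag2 mutant, being lower in both clusters of Myh6-R404Q. This split was looked at after the class values were seen, and the part of depth or RNA quality was not tested.

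Pde3a was higher in fibroblast-like and mesothelial-like cells of Myh6-R404Q. In fibroblast-like cells it was at 357, 569 and 360 CPM, a ratio of 1.59 (1.51 to 1.68) for Myh6-R404Q, while the Prkag2 mutant had a ratio of 1.01. With cells thinned to 1000 UMIs the log2 ratio for Myh6-R404Q was 0.57 in place of 0.67, just under the call limit of 1.5-fold. The class holds 4 clusters whose cell numbers differ between libraries, and Pde3a was higher in Myh6-R404Q in each: 314 against 491 CPM in the cluster led by C7, 366 against 581 CPM in that led by Necab1, 520 against 695 CPM in that led by Fbn2 and 408 against 606 CPM in that led by Has2. In mesothelial-like cells it was at 169, 305 and 174 CPM, a ratio of 1.81 (1.58 to 2.07). All 9 listed fibroblast markers were detected in mesothelial-like cells, none at 0 in any library, and their sum moved with Pde3a: 2636, 4254 and 3028 CPM. At the ratio to 4 of these markers (Dcn, Gsn, Col1a2 and Col3a1) found in fibroblast-like cells, Pde3a would reach 242, 454 and 195 CPM. That is above the measured level in all 3 libraries. The same estimate gave 656, 702 and 445 CPM for Pde1a, measured at 233, 206 and 183 CPM, so it overshoots. The rise of Pde3a is therefore assigned neither to mesothelial-like cells nor to fibroblast RNA, and its source was not tested. With free cardiomyocyte RNA subtracted the log2 ratios were 0.98 in fibroblast-like and 2.74 in mesothelial-like cells. The summed level of the 10 cardiomyocyte markers was lower in Myh6-R404Q than in WT in both classes, 8240 against 9699 CPM in fibroblast-like and 6100 against 8303 CPM in mesothelial-like cells. Pde3a UMIs were in 26.7%, 36.2% and 26.6% of fibroblast-like cells thinned to 1000 UMIs, and in 7.54%, 5.96% and 5.43% of endothelial-like cells.

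Summed over both comparisons, macrophage-like cells held the most member calls, 3 of 9 measured for Myh6-R404Q and 4 of 9 for the Prkag2 mutant, all lower (endocardial-like cells also held 3 for Myh6-R404Q), beside 6.99% and 8.7% of all genes measured that were lower. The median log2 ratio of the 9 members was -0.33 and -0.52, against 0.03 and 0.01 over all genes. Among the 9, Pde1c, Pde3a, Pde4b and Pde4d lay at or under their levels expected from free cardiomyocyte RNA. Pde1a, at 22.3, 27.0 and 15.3 CPM, lay under its level expected from free fibroblast RNA. The part of muscle or fibroblast RNA in this median was not tested. Pde7b was at 449, 234 and 270 CPM, ratios of 0.52 (0.46 to 0.58) and 0.60 (0.54 to 0.67), while the cells of the class fell differently into its subclusters. The subcluster led by Ccl21a, whose leading genes also include the muscle genes Myoz2 and Pgam2, held 1024 of 1549, 306 of 965 and 210 of 852 cells. Pde7b was at 427, 173 and 171 CPM in it, 523, 194 and 272 CPM in the subcluster led by Egfros and 451, 298 and 330 CPM in that led by Fat3. In the small subcluster led by Kif11 the intervals of both ratios held 1. A subcluster of 27, 23 and 17 cells was led by Ttn and other heart muscle genes and is not read as macrophage-like. The cells of that subcluster remain in all values given for the class. Pde4b was at 232, 168 and 112 CPM, ratios of 0.72 (not called) and 0.48 (0.41 to 0.57). It lay under its expected free-RNA level of 595, 426 and 413 CPM. The ceiling was 104, 71.4 and 68.4 CPM, which every class but the one that sets it exceeds. With doublet calls kept, the log2 ratio of Pde7b in Prkag2-p.R299Q was -0.41, which is under the call limit. With free cardiomyocyte RNA subtracted, Pde7b was at -2.11 for Myh6-R404Q and -1.02 for the Prkag2 mutant. Pde3b did not follow: it was at 903, 1147 and 1051 CPM.

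Other macrophage calls were of low genes. Pde3a was at 68.8, 54.5 and 33.7 CPM (called lower in Prkag2-p.R299Q), Pde1c at 24.2, 13.8 and 9.48 CPM (lower in both) and Pde2a at 36.5, 23.5 and 30.5 CPM (lower in Myh6-R404Q). All 10 cardiomyocyte markers were detected in macrophage-like cells, and their sum fell from 12501 CPM in WT to 10055 and 8033 CPM. Pde3a and Pde1c were under their expected free-RNA levels in all 3 libraries and are not read as expression by the class. With doublet calls kept, none of these calls stayed past the limit: the log2 ratios were -0.44 for Pde3a, -0.10 and -0.37 for Pde1c and -0.40 for Pde2a. With cells thinned to 1000 UMIs, the Myh6-R404Q calls of Pde1c (-0.12) and Pde2a (-0.38) were lost too.

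**Figure D4:**
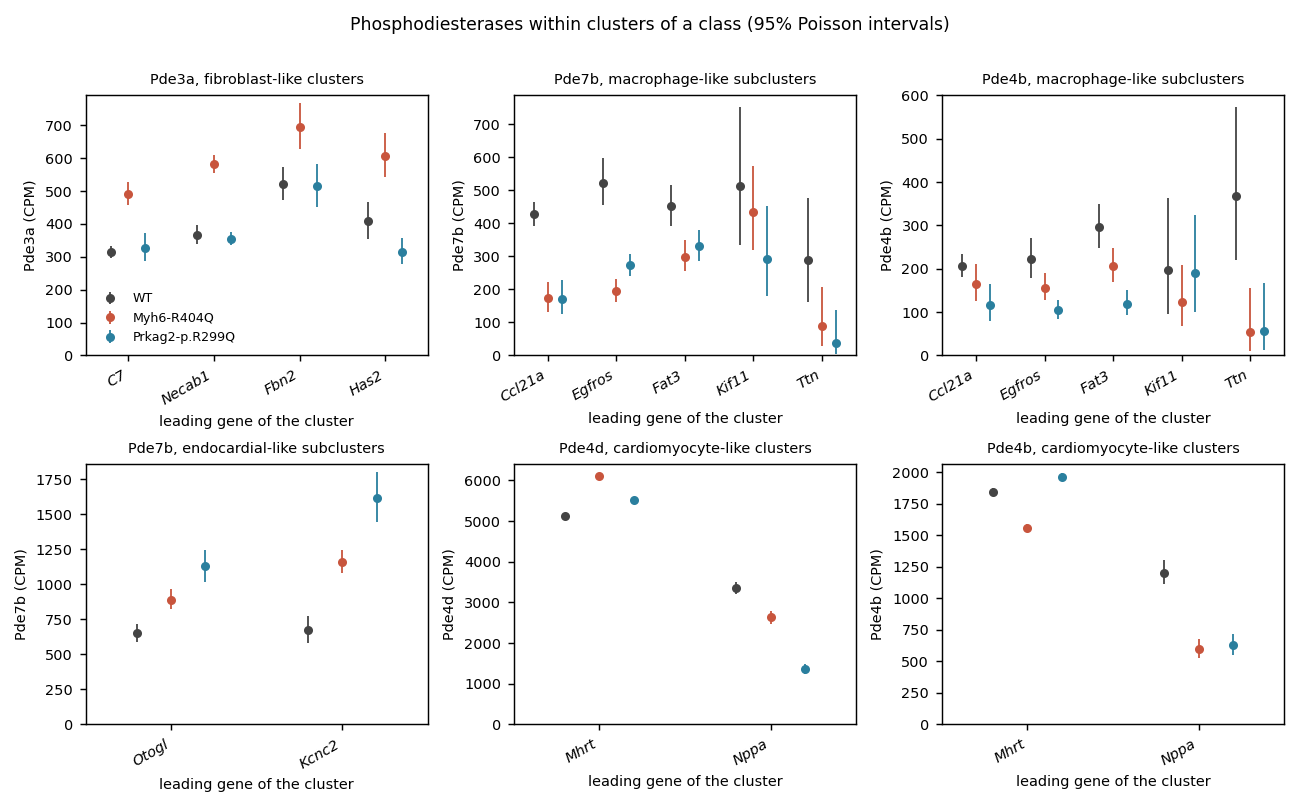
CPM of selected phosphodiesterases within the clusters or subclusters of a class, named by their leading gene, for the 3 libraries with 95% Poisson intervals. Pde3a is higher in Myh6-R404Q than in WT in all 4 fibroblast-like clusters, Pde7b is lower in both mutants than in WT in the subclusters of the macrophage-like class led by Ccl21a, Egfros and Fat3 (the one led by Ttn has heart muscle genes as its leading genes), and it is higher in both endocardial-like subclusters.

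In endocardial-like cells the direction of Pde7b turned: it was at 660, 1025 and 1305 CPM, ratios of 1.55 (1.41 to 1.71) and 1.98 (1.77 to 2.21). Both subclusters showed it, at 653, 891 and 1127 CPM in the one led by Otogl and 674, 1160 and 1614 CPM in the one led by Kcnc2. UMIs of Pde7b were in 41.0%, 49.3% and 55.4% of endocardial-like cells thinned to 1000 UMIs. Summed cardiomyocyte markers were at 10471 CPM in WT and at 9400 and 5637 CPM in the mutants. The part of muscle RNA in the ratios of Pde7b was not tested. Pde2a in these cells was at 48.5, 83.4 and 21.5 CPM, from 44, 117 and 12 UMIs, called higher in Myh6-R404Q and lower in Prkag2-p.R299Q. Pde1a was at 149, 94.8 and 149 CPM and was called lower in Myh6-R404Q, ratio 0.64 (0.50 to 0.82), and lay under its expected level from free fibroblast RNA of 257, 186 and 158 CPM in all 3 libraries. With doublet calls kept, the log2 ratios for Myh6-R404Q fell under the limit, to 0.53 for Pde7b and -0.44 for Pde1a, and with thinned cells Pde1a was at -0.57.

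The remaining member calls were small counts. Pde3a in lymphatic endothelial-like cells was at 77.0, 33.2 and 32.2 CPM, from 91, 23 and 17 UMIs, and lay under its expected free-RNA level of 210, 226 and 120 CPM. With doublet calls kept, its log2 ratio in Myh6-R404Q was -0.42, which is under the call limit. Pde2a in mesothelial-like cells rested on 24, 32 and 12 UMIs and was called lower in both mutants, with ratios of 0.55 (0.31 to 0.97) and 0.43 (0.20 to 0.90). It stood at 10.1, 8.76 and 6.62 CPM in fibroblast-like cells, called lower in Prkag2-p.R299Q, but with clusters weighted by WT cell shares the log2 ratio turned from -0.54 to 0.15. Its ratio there was 1.55 in the cluster led by C7, 0.96 in that led by Necab1, 0.43 in that led by Fbn2 and 1.31 in that led by Has2, and each interval held 1. Pde1a in endothelial-like cells was at 38.0, 25.9 and 23.8 CPM, called lower in Prkag2-p.R299Q, and lay under its expected level from free fibroblast RNA of 265, 195 and 165 CPM. With doublet calls kept, the calls of Pde1a here (-0.31) and of Pde2a in mesothelial-like cells of Myh6-R404Q (-0.36) were lost. The former was also lost with thinned cells (-0.50), and the call of Pde2a in mesothelial-like cells of the Prkag2 mutant with the mean of per-cell CPM (-0.43).

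Of the other 74 genes listed for cyclic nucleotide signalling, 38 of 397 pairs of gene and class were called in Myh6-R404Q (15 higher, 23 lower) and 47 of 395 in Prkag2-p.R299Q (9 higher, 38 lower). Those shares, 9.57% and 11.9%, stand beside 10.6% and 9.3% of all pairs, and in the Prkag2 mutant 9.62% of pathway pairs were lower, against 5.24% of all pairs. In cardiomyocyte-like cells of Myh6-R404Q the called genes were Pde11a, which cleaves both messengers (80.3 to 149 CPM, ratio 1.86), Pde6a (26.2 to 42.3 CPM) and Adcy8, an adenylyl cyclase (22.2 to 12.0 CPM). In endothelial-like cells Nos2, the inducible nitric oxide synthase, was at 18.9, 50.2 and 38.3 CPM and was called higher in both mutants. In the same cells of Prkag2-p.R299Q Pde11a was called higher: it was at 3.97, 4.93 and 34.0 CPM, from 16, 16 and 63 UMIs. In macrophage-like cells Pde4dip, an anchor protein abundant in muscle, was lower in both mutants, at 253, 129 and 115 CPM, as was the sum of cardiomyocyte markers.

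Among the compared classes, several genes that make or read cGMP were highest in pericyte-like cells, as Pde5a was. They were chosen after their values were seen. Prkg1, which encodes protein kinase G, stood at 7530, 7521 and 7774 CPM in pericyte-like cells, and the guanylyl cyclase subunit Gucy1a2 at 1759, 1405 and 1796 CPM, Gucy1b1 at 630, 692 and 602 CPM and Gucy1a1 at 491, 558 and 481 CPM. Prkg1 was also at 5865, 5782 and 4874 CPM in endocardial-like cells. Pde10a, another phosphodiesterase, was highest in mesothelial-like cells at 1748, 1033 and 1834 CPM, with a ratio of 0.59 in Myh6-R404Q, and was likewise chosen after its values were seen. The map of the pathway in WT shows these classes.

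**Figure D5:**
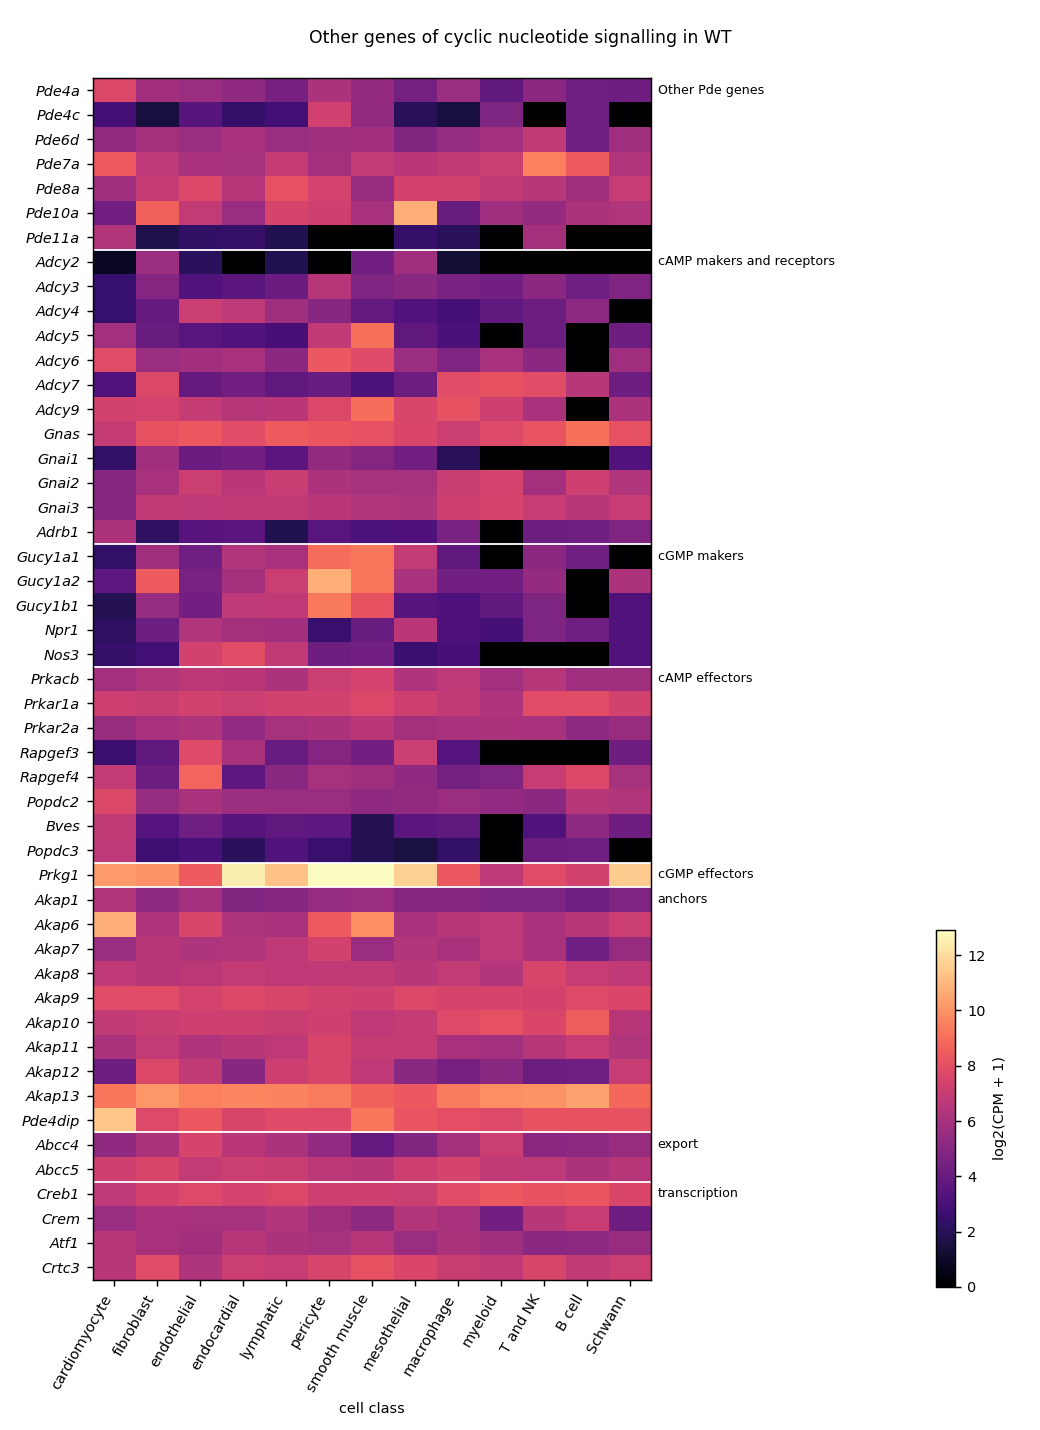
Level of the other genes of cyclic nucleotide signalling in WT, as log2(CPM + 1), in 13 classes, grouped by role; genes are shown where 1 of the 8 compared classes reached 50 CPM. Prkg1 and the guanylyl cyclase genes are bright in the pericyte and smooth muscle columns, and Pde10a in the mesothelial column.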

How the data were processed

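The labels describe 3 single-cell 3' libraries of total heart cells. Per the submitters' processing notes, reads were processed with Cell Ranger 7.0.1 and mm10. The deposited matrices hold UMI counts per gene and barcode, not normalized; no label names their filters or says whether introns were counted. Barcodes with at least 500 UMIs, 300 genes and at most 20% mitochondrial counts passed. Doublets were called per library and removed (17.8%, 16.6% and 14.0% of passing barcodes, against 14.4%, 10.1% and 6.36% expected from the barcode numbers, so the excess differed between libraries). Cells were clustered with scanpy 1.11.5 and leidenalg 0.10.2 (2000 variable genes without the listed genes, 30 components, resolution 0.8), and clusters were named from marker lists. A cluster of 36 cells with 18, 11 and 7 cells per library was left unnamed by a minimum of 50 cells set after the clusters were seen. Subclusters (resolution 0.5) were also added after the data were seen. UMIs were summed per class and library and divided by the class total. Poisson intervals were exact, intervals of ratios were exact conditional binomial (scipy 1.17.1), and log2 ratios used a pseudocount of 1 CPM. Calls were checked on simulated Poisson counts with known folds. Such counts hold counting error only, so the check does not cover differences of animal, preparation, doublets or free RNA. The text names every member, the 3 called pathway genes with the largest log2 ratio per class and comparison, and up to 3 genes most like each member by profile; some genes that this rule allows are not reported here. Members and lists were chosen with earlier results of these data known. Alternatives covered normalization, thinning, filters, clustering, doublets and free RNA.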

Additional observations from a re-analysis of the deposited data

Results flagged for a closer look

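These results stand out because the log2 ratio of a gene to WT pointed one way in 1 class and the other way in another, or opposite ways in the 2 mutants. The differences were not tested, since each genotype is 1 library. In Myh6-R404Q, Pde3a was higher in fibroblast-like (0.67) and mesothelial-like cells (0.85, where fibroblast markers moved with it) and lower in lymphatic endothelial-like cells (-1.19), where it lay under its expected free-RNA level. Pde7b was higher in endocardial-like cells (0.63) and lower in macrophage-like cells (-0.94) in Myh6-R404Q, and likewise in Prkag2-p.R299Q (0.98 and -0.73). Pde2a was higher in endocardial-like cells of Myh6-R404Q (0.77) and lower in mesothelial-like (-0.80) and macrophage-like cells (-0.61), and it was lower in endocardial-like cells of Prkag2-p.R299Q (-1.13), where it rests on 12 UMIs.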

How the results depend on the processing

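Of 15 settings, 2-fold for a call changed only the counts of calls and gave no ratios. Over the others and 38 log2 ratios of members, 455 of 502 values moved by less than their counting error and 46 moved by more. In addition, 1 called ratio turned its sign: Pde2a in fibroblast-like cells of Prkag2-p.R299Q went from -0.54 to 0.15 with clusters weighted by WT cell shares. The sign also turned in 12 values of 5 ratios that were not called, all in cardiomyocyte-like cells: Pde3b in Myh6-R404Q, and Pde1a, Pde3b, Pde4b and Pde8b in the Prkag2 mutant. The 455 values include ones that a setting could not change. A CPM minimum does not enter a ratio, and subtracting free cardiomyocyte RNA leaves cardiomyocyte-like cells as they were. Weighting by WT cluster shares leaves classes of 1 cluster as they were, so the 455 do not measure robustness. With at least 50 CPM, 5 member calls were left in Prkag2-p.R299Q, and 20 and 17 pathway calls in Myh6-R404Q and Prkag2-p.R299Q. With 2-fold for a call, 1 and 6 member calls and 9 and 21 pathway calls were left. Both settings admit fewer pairs by construction. With the Myh6-R404Q matrix as deposited, which also holds the other libraries' barcodes, 0 member and 9 pathway calls were left in Myh6-R404Q; that setting and the unnamed cluster kept among pericyte-like cells were chosen after seeing the data. Of 19 called member ratios past 1.5-fold on the log2 scale with the pseudocount, 10 fell under that limit with doublet calls kept, 5 with cells thinned to 1000 UMIs (Pde3a in fibroblast-like, Pde1a in endocardial-like, Pde1c and Pde2a in macrophage-like cells of Myh6-R404Q, Pde1a in endothelial-like cells of the Prkag2 mutant), and 3 with at least 1000 UMIs per barcode (the last 3 of these). With the mean of per-cell CPM 2 fell under it (Pde2a in macrophage-like cells of Myh6-R404Q and in mesothelial-like cells of the Prkag2 mutant), with a pseudocount of 5 CPM 2 (Pde2a in macrophage-like cells of Myh6-R404Q and Pde1a in endothelial-like cells of the Prkag2 mutant) and with the listed genes among the variable genes 1 (Pde2a in macrophage-like cells of Myh6-R404Q). None did with resolution 1.4, rescaled class totals or WT cluster shares. The macrophage-like, endocardial-like and lymphatic endothelial-like classes are 1 cluster each, so WT cluster shares could not change their calls. At resolution 1.4 each stayed 1 cluster with nearly the same cell numbers. With free cardiomyocyte RNA subtracted, only 11 of the 19 ratios could be followed, and 0 of these fell under the limit. The others no longer reached 10 CPM in either library. No paired analysis was possible because each genotype has 1 library. Depth limits the small counts: genes under 50 CPM often rest on fewer than 100 UMIs per class.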
